A study of Homo sapiens with 28 samples.

Results

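The 7 genes HAND1, HAND2, NKX2-5, TBX5, ISL1, CDX2 and TFAP2A were followed through 4 histone marks and 4 cell cycle phases of human embryonic stem cells. They were chosen by name, as transcription factor genes of cardiac mesoderm and trophoblast, and a peak was assigned to a gene if it overlapped the gene body plus 5 kb on either side by at least 1 bp (hg19). By that rule 94 of the 317841 peaks in the 16 deposited lists belonged to the 7 genes. In hg19, HAND1 (chr5:153854532-153857824), NKX2-5 (chr5:172659107-172662315) and ISL1 (chr5:50678958-50690563) lie on chromosome 5, the last on the plus strand. HAND2 (chr4:174447652-174451378), TBX5 (chr12:114791735-114846247), CDX2 (chr13:28536205-28543505) and TFAP2A (chr6:10396916-10419797) lie on chromosomes 4, 12, 13 and 6, and all genes but ISL1 are on the minus strand. Of the 94 peaks, 83 were H3K27me3 peaks, 10 were H3K4me3 peaks and 1 was an H3K4me1 peak.

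The cells carried the Fucci reporters, fluorescent proteins that accumulate and disappear with the cell cycle, and were kept in a defined medium with FGF2, Longr3 IGF-1, Activin a and Heregulin b1, free of serum and feeder cells. They were sorted into early G1 (DN), late G1 (KO2), S (AzL) and G2/M (AzH) fractions. Each fraction gave 1 library for each of H3K4me3, H3K27me3, H3K27ac and H3K4me1, 1 input library, and 1 circular chromosome conformation capture (4C) library from each of 2 viewpoints, near the GATA6 and SOX17 promoters. All values come from 1 reporter line with 1 library in each group, so differences between phases have no replicate check and no test was possible. No hg19 annotation was used here, so the identity of the cells was not checked against marker genes.

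H3K27me3 is laid down by Polycomb repressive complex PRC2 and covers the promoters of many developmental regulators that pluripotent cells keep silent. H3K4me3 marks active and poised promoters, and the presence of both marks on a promoter is called bivalency. H3K27ac and H3K4me1 mark active promoters and enhancers. HAND1 and HAND2 are basic helix-loop-helix factors of the developing heart, HAND1 also of extraembryonic tissue and HAND2 also of the limb bud. NKX2-5 is a homeodomain factor of cardiac progenitors, TBX5 a T-box factor of heart and forelimb, and ISL1 a LIM-homeodomain factor of the second heart field. CDX2, a caudal-type homeodomain factor, specifies trophectoderm in the mouse embryo and later posterior and intestinal identity. TFAP2A, the AP-2 alpha factor, acts in trophoblast, surface ectoderm and neural crest.

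Promoter sequences show how CG-rich the starts are, since Polycomb domains in mammals tend to lie on CG-rich DNA. In the RefSeq promoter table (GRCh38.p14), 6 of the 7 genes had an entry, and the 250 bases upstream of the start are given 5′ to 3′ on the gene's strand with each CG dinucleotide in capitals. HAND1 (chr5:154478228-154478477, minus strand) is shown beside ISL1 (chr5:51383198-51383447, plus strand), which has the most CG of the entries. CDX2 (chr13:27969316-27969565, minus strand) has the fewest, and the TFAP2A entry is the inner of its 2 starts (chr6:10412392-10412641, minus strand).
HAND1: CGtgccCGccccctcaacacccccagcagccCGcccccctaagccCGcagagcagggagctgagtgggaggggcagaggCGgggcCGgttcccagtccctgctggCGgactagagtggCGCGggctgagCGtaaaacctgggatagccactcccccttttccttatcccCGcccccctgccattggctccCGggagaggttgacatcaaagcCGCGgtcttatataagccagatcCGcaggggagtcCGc
ISL1: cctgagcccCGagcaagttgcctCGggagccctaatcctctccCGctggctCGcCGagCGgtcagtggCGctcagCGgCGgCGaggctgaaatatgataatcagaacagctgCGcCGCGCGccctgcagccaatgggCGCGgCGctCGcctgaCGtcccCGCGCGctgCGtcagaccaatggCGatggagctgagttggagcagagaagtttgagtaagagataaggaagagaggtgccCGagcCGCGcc
CDX2: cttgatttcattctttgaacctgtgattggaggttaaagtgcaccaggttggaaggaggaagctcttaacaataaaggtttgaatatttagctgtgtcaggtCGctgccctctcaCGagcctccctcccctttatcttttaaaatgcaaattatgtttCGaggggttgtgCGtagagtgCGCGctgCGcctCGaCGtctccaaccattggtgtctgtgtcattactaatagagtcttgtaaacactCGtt
TFAP2A inner start: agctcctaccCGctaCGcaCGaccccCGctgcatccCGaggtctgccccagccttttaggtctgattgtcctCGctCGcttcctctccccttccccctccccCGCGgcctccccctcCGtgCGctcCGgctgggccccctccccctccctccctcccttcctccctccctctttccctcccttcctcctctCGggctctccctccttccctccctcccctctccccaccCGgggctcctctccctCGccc
The CG dinucleotide, which reads the same on both strands, occurred 16 times in the HAND1 stretch, 27 times in ISL1, 10 times in CDX2 and 15 times in the TFAP2A stretch. HAND2 held 13, TBX5 held 20 and 13 at its 2 entries, and the outer TFAP2A start held 13. Over all 35116 promoters of the table the median was 11, with quartiles of 3 and 23, and 93.9% held at least 1 CG. Among the entries of these genes, ISL1 alone lay above the upper quartile and CDX2 alone below the median.

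H3K27me3 peaks lay over all 7 genes in all 4 phases, at TBX5 only around its start. Over the 7 windows, which total 176.531 kb, H3K27me3 peaks covered 131.0 kb in early G1, 130.2 kb in late G1, 122.8 kb in S phase and 128.7 kb in G2/M. All 7 of 7 windows held an H3K27me3 peak in each phase. Among all 10 kb tiles of chromosomes 1 to 21, 3.39% held one in early G1, 3.91% in late G1, 2.72% in S phase and 3.37% in G2/M. Around merged H3K4me3 regions, a 10 kb window held one in 28.7%, 30.9%, 26.7% and 28.8% of cases in those phases. These regions stand in for promoters here but leave out every promoter without an H3K4me3 peak. The starts of HAND1, HAND2, NKX2-5, TBX5 and CDX2 lay 32.1, 78.7, 90.5, 71.7 and 130.9 kb from the nearest such region. Here and below, shares at merged H3K4me3 regions are therefore no background for starts without H3K4me3. Because the gene windows differ in length, 10 kb windows centred on the gene start were also compared. At least 90% of that window was covered in 7 of 7 genes in every phase, against 0.192%, 0.257%, 0.121% and 0.181% of all tiles in early G1, late G1, S phase and then G2/M. Around merged H3K4me3 regions the same share was 1.19%, 1.58%, 0.812% and 1.17% in those phases. The least covered start window was 99.25% covered in early G1, 99.5% in late G1, 93.75% in S phase and 96.75% in G2/M.

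The start of the gene lay under an H3K27me3 peak in 7 of 7 genes in early G1, late G1 and G2/M and in 6 of 7 in S. The midpoints of merged H3K4me3 regions lay under one in 16.2%, 18%, 14.7% and 16.4% of cases in early G1, late G1, S phase and then G2/M. The gene without a peak over its start in S was NKX2-5, where a 100 bp gap separated 2 peaks. The peaks over the 7 windows were 15 in early G1, 13 in late G1, 33 in S phase and 22 in G2/M. Of the 33 in S, ISL1 held 12, TFAP2A 7 and NKX2-5 5, while CDX2 held 1 in every phase, and TBX5 and TFAP2A had more pieces in G2/M (4 and 9) than in S (3 and 7). The S list is also the shortest of the 4 H3K27me3 lists, with 19989 peaks, against 23755, 31682 and 26480 in early G1, late G1 and G2/M, and its part in the S values was not tested. With the 4 lists trimmed to one length the covered totals were 131.0, 129.9, 122.8 and 128.5 kb in early G1, late G1, S phase and then G2/M, which moved none of them by more than 0.325 kb. The S list set that length, so its own total could not change. Trimming drops the peaks with the weakest scores, so it cannot show the part of list length in the S values.

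CDX2 had the most complete cover. Its whole 17.301 kb window lay under a single H3K27me3 peak in each phase, which was 33.75 kb long in early G1, 42.275 kb in late G1, 30.5 kb in S phase and 34.1 kb in G2/M. By length that peak ranked 22nd, 16th, 13th and 21st in the lists of those phases. HAND1 was covered over 100%, 100%, 98.4% and 100% of its window in early G1, late G1, S phase and then G2/M, and its longest peak measured 18.5, 19.3, 16.1 and 18.3 kb. HAND2 was covered over 13.652 of 13.727 kb of its window in early G1 and in S, and over all of it in late G1 and G2/M. Its longest peak was 26.7 kb in early G1, 39.65 kb in late G1, 24.1 kb in S phase and 36.4 kb in G2/M. A 75 bp gap just inside the gene parted its peaks in early G1 and S, and none did in late G1 and G2/M.

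NKX2-5 was covered over 100% of its window in early G1 and late G1, 92.5% in S phase and 96.6% in G2/M. Its longest peak was 22.1 kb in early G1, 20.5 kb in late G1, 5.775 kb in S phase and 19.7 kb in G2/M. The shorter peak in S came with 5 pieces over the window, against 1 piece in each of the other phases. ISL1 was in 2 pieces in early G1, 3 in late G1, 12 in S phase and 5 in G2/M, and was covered over 99.1%, 98.3%, 89.6% and 95.1% of its window in those phases. Its longest peak measured 19.5, 13.5, 8.625 and 11.5 kb in early G1, late G1, S phase and then G2/M. A 200 bp stretch at the 3′ end of ISL1 had no H3K27me3 peak in any phase.

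TBX5, whose gene is 54.513 kb long, was covered only around its start. H3K27me3 covered 32.5%, 32.4%, 30.4% and 33.0% of its window in early G1, late G1, S phase and then G2/M. The peak over the start reached 15.5, 15.7, 14.02 and 15.6 kb into the gene in those phases. Its longest H3K27me3 peak was 28.55, 29.8, 23.15 and 27.4 kb long in those phases. The 3′ stretch of the window without any H3K27me3 peak was 42.3 to 44.2 kb long. TFAP2A was covered over 94.8%, 92.9%, 83.9% and 90.4% of its window, in 6, 4, 7 and 9 pieces in early G1, late G1, S phase and then G2/M. Its longest H3K27me3 peak was 24.1, 23.4, 21.5 and 21.6 kb long in those phases. A 1.15 kb stretch at chr6:10404001-10405150, 14.6 to 15.8 kb inside the gene, lay outside H3K27me3 peaks in all 4 phases.

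The tallest H3K27me3 peak of each gene was also among the tallest of its list, though smaller pieces over the same windows stood far lower. Height is the authors' own value per peak and is given here as the percentage of the list's peaks that are lower, so it compares a gene with its own library only. The tallest peak of each gene lay between the 97.9th and 99.9th percentile in early G1, the 96.0th and 99.5th in late G1, the 94.2nd and 98.5th in S, and the 96.2nd and 99.5th in G2/M. Among the smaller pieces, one of 75 bp at TFAP2A in G2/M stood at 2.8. The values below are again those of the tallest peak. CDX2 stood highest of the 7 in early G1 at 99.9, and NKX2-5 stood lowest in late G1, S phase and G2/M at 96.0, 94.2 and 96.2. HAND1 stood at 99.5, 97.6, 96.7 and 97.996 in early G1, late G1, S phase and then G2/M, and HAND2 at 99.4, 98.9, 98.5 and 98.8. TBX5 stood at 99.2, 97.8, 98.5 and 99.1 and TFAP2A at 99.8, 98.9, 97.7 and 99.5 in those phases. ISL1 was the lowest of the 7 in early G1 at 97.9 but the highest in late G1, at 99.5. These were different peaks. The late G1 peak began past the 3′ end of ISL1, and its summit lay 17121 bp from the start, outside the window. The late G1 peak over the ISL1 start stood at 98.7.

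The other marks were sparse. No H3K27ac peak fell in any of the 7 windows in any phase. An H3K27ac peak was present in 5.61%, 5.95%, 2.1% and 3.64% of all 10 kb tiles in early G1, late G1, S phase and then G2/M, so a count of 0 among 7 genes is near that background, also in the 10 kb start windows, where the count was 0 in each phase. Around merged H3K4me3 regions the shares were 41.7%, 34.7%, 12% and 22.6% in those phases. The nearest H3K27ac peak to the CDX2 start was 53.2 to 53.3 kb away in the 4 phases, that of HAND1 108.3 to 109.5 kb away and that of TFAP2A 99.1 to 100.8 kb away. The single H3K4me1 peak was 100 bp long, lay 16.2 to 16.3 kb inside TFAP2A in late G1, and stood at the 72.7th percentile of its list by height. H3K4me1 peaks occurred in 0.576%, 1.23%, 1.82% and 1.79% of tiles in early G1, late G1, S phase and then G2/M, and near 2.15%, 3.61%, 6.8% and 4.81% of merged H3K4me3 regions in those phases.

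H3K4me3 peaks were found at ISL1 and TFAP2A alone among the 7 genes. An H3K4me3 peak lay in the windows of 2 genes in early G1 and of 1 gene in late G1, S phase and G2/M, and in 6.16%, 5.6%, 5.7% and 6.54% of tiles in those phases. The gene windows are longer than the tiles, and in the 10 kb start windows an H3K4me3 peak lay at 1 gene, ISL1, in early G1 and at 0 genes in the other phases. ISL1 had 3 H3K4me3 peaks in early G1 and none in the other phases. They were 400 bp, 200 bp and 150 bp long, and the first of these covered the gene start. By height they stood at the 15.8th, 15.6th and 18.3rd percentiles of the early G1 list, among its lower peaks. All 3 lay inside H3K27me3 peaks. None of them remained when the list was limited to the 50% of peaks with the most negative score or to peaks of at least 500 bp, which left 1 gene with H3K4me3 in early G1 and 0 in late G1.

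TFAP2A held an H3K4me3 peak in every phase at 14.2 to 15.0 kb inside the gene, measuring 775 bp in early G1, 475 bp in late G1, 575 bp in S phase and 550 bp in G2/M. Its height stood at the 57.9th, 32.3rd, 52.0th and 53.3rd percentiles of the lists of those phases. That peak was the only one to reappear at the same place in all 4 phases, and it overlapped the stretch of TFAP2A that H3K27me3 peaks left free. A separate TFAP2A peak lay 6.972 to 7.271 kb inside the gene in late G1, and a peak overlapping that place lay 6.947 to 7.146 kb inside it in G2/M. In the RefSeq table the inner TFAP2A start lies 7268 bp downstream of the outer one, but no coordinate was carried over between the builds.

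H3K4me3 and H3K27me3 peaks overlapped at 2 genes in early G1, at 1 in late G1, at 0 in S phase and at 1 in G2/M. Of merged H3K4me3 regions, 14.7%, 14.2%, 10.9% and 14.8% carried both marks in those phases. That share is of regions chosen for H3K4me3 and is scored on the region itself. The gene count is over whole gene windows, most of them without H3K4me3, so the 2 are not like measures. With either of those limits the counts were 1 in early G1 and 0 in late G1 and G2/M. The overlap measured 750 bp at ISL1 in early G1. At TFAP2A it measured 400 bp in early G1, 300 bp in late G1, 0 bp in S phase and 275 bp in G2/M. At the other 5 genes the H3K4me3 peak nearest to the start was far away in every phase. It was 30.7 to 31.1 kb from the HAND1 start and 90.1 to 90.3 kb from the NKX2-5 start. For CDX2 it was 130.8 kb away in both parts of G1, 167.9 kb in S phase and 168.2 kb in G2/M.

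To set the genes against similar chromatin, H3K27me3 peaks of the 4 phases were joined over gaps of up to 2 kb, and a domain was called broad if it held a single peak of at least 10 kb in any phase. Of 10196 domains, 354 were broad, and each of the 7 gene starts lay in a broad domain of its own. The TBX5 domain, chr12:114829051-114901650, held only the 5′ part of the gene and reached upstream beyond the gene window. Much of its length therefore lies outside TBX5. The spans were 72.6 kb for TBX5, 60.65 kb for CDX2, 52.85 kb for TFAP2A, 43.85 kb for HAND2, 29.15 kb for NKX2-5, 27.15 kb for ISL1 and 23.225 kb for HAND1. The TBX5 domain had more covered length than 93.8% to 95.2% of broad domains across the 4 phases, whereas HAND1 had more than 42.7% to 56.8%. An H3K4me3 peak lay within 2 of the 7 gene domains in early G1 and within 1 in each of the other phases, against 45.8%, 44.9%, 41.5% and 55.6% of broad domains in early G1, late G1, S phase and then G2/M. No gene domain held an H3K27ac peak, which 6.21%, 9.89%, 2.54% and 3.67% of broad domains did in those phases. An H3K4me1 peak lay in the TFAP2A domain in late G1 and, over 150 bp, in the HAND2 domain in S, and in 3.95%, 5.08%, 15.3% and 8.19% of broad domains.

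**Figure D1:**
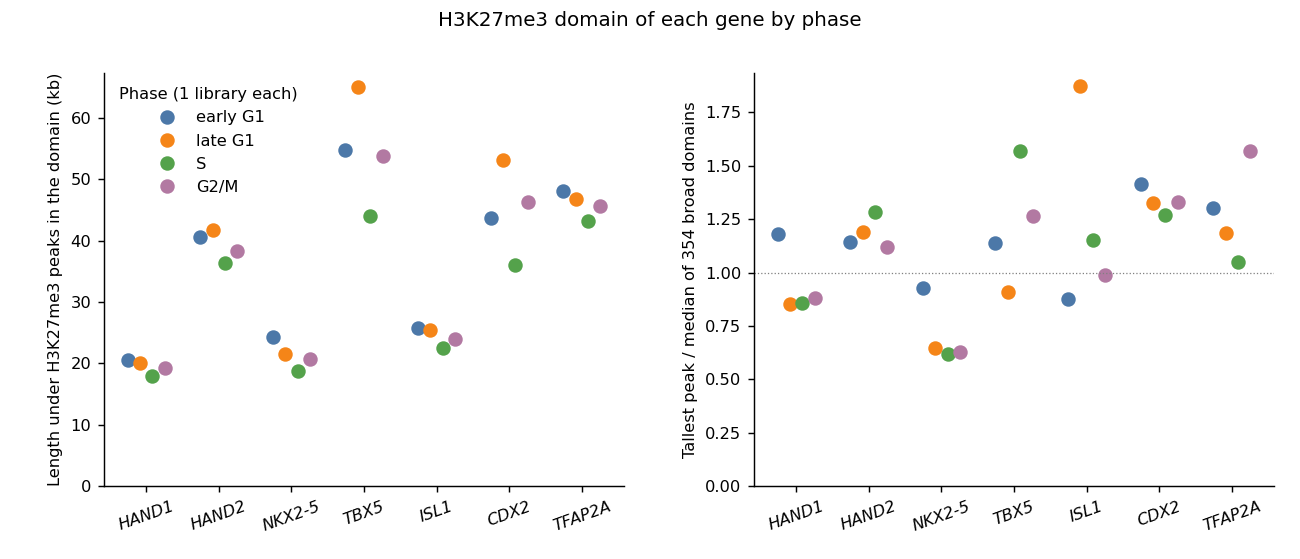
Covered length in kb (left) and height of the tallest peak relative to the median of the 354 broad domains (right) for the domain of each gene in early G1, late G1, S phase and then G2/M. TBX5 is the longest throughout, and ISL1 in late G1 has the greatest relative height at 1.87, from a peak past its 3′ end.

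Covered domain length was shortest in S for all 7 genes, a pattern that 94.6% of the broad domains shared. CDX2 covered 43.7 kb in early G1, 53.2 kb in late G1, 36.0 kb in S phase and 46.2 kb in G2/M. TBX5 covered 54.7, 65.0, 43.9 and 53.75 kb in the same phases. These 2 genes and HAND2 were longest in late G1, as were 72.6% of broad domains, and the other 4 genes were longest in early G1, as were 23.7%. In the broad domains, early G1 was the shortest phase in 2.26% of cases and G2/M in 2.54%. NKX2-5 covered 21.5 kb in late G1, against 24.3 kb in early G1, a ratio of 0.886, and 2.54% of broad domains had a lower ratio.

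None of the 7 domains changed by 1.5-fold or more between successive phases. For S over late G1 the ratios ran between 0.676 at TBX5 and 0.923 at TFAP2A with a median of 0.870, and 34.5% of broad domains were at least 1.5-fold shorter. TBX5 at 0.676 and CDX2 at 0.677 lay just inside the limit, the CDX2 domain passed it at 0.562 when peaks were joined over gaps of up to 5 kb, a setting chosen after seeing the data, and the median over the broad domains was 0.774. For G2/M over S the median ratio was 1.08 among the genes and 1.17 over the broad domains, of which 16.4% were at least 1.5-fold longer. For late G1 over early G1 it was 0.991 among the genes and 1.06 over the broad domains, of which 7.34% were at least 1.5-fold longer. For early G1 over G2/M it was 1.06 among the genes and 1.03 over the broad domains, of which 2.54% were at least 1.5-fold longer and 3.67% at least 1.5-fold shorter.

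**Figure D2:**
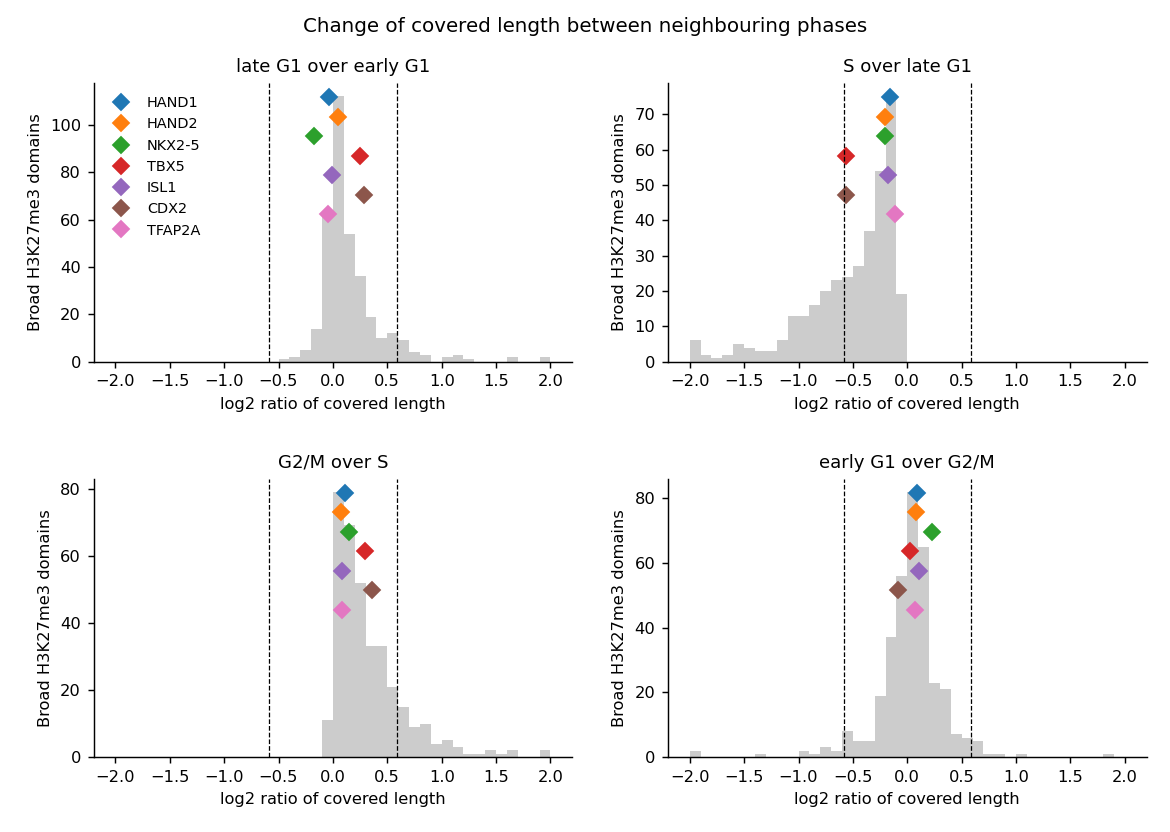
Log2 ratio of covered length between successive phases for the 354 broad H3K27me3 domains (distribution, values beyond the axis drawn at its ends) and for the 7 gene domains (marks). The gene domains lie inside the 1.5-fold limits in each step, with TBX5 and CDX2 closest to the limit for S over late G1.

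The height of the tallest peak anywhere in a domain, relative to the median broad domain, moved differently from length. ISL1 stood at 0.874 in early G1, 1.87 in late G1, 1.15 in S phase and 0.987 in G2/M. Its late G1 and S values are those of peaks past the 3′ end of the gene. TBX5 stood at 1.14, 0.911, 1.57 and 1.26 in early G1, late G1, S phase and then G2/M. In early G1, late G1 and S the tallest peak of the TBX5 domain, at heights of 309.2, 189.0 and 233.0, lay outside the gene window. The tallest peaks over that window in those phases had heights of 299.3, 182.5 and 188.7. CDX2 stayed between 1.27 and 1.41, above the broad median in each phase, and NKX2-5 between 0.618 and 0.928, below it. HAND1 was above the broad median in early G1 at 1.18 and below it in late G1, S phase and G2/M at 0.852, 0.856 and 0.882.

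Over the covered shares of the gene windows in the 16 lists, HAND2 and CDX2 were the most alike, with a mean absolute difference of 0.0683 percentage points. HAND1 differed by 0.103 percentage points from each of them. TBX5 was the farthest from the rest, at 15.2 to 16.98 percentage points. Regions outside the 7 genes were compared by 10 kb windows at gene starts and region midpoints, so their differences are not on the scale of the gene pairs. The merged H3K4me3 region nearest to the genes' median profile was chr12:113909426-113909500, at 0.0469 percentage points, and it carried H3K4me3 in 1 phase. The next 4 regions, on chromosomes 1, 2 and 12, differed by 0.0781 percentage points each.

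The 4C libraries record which restriction fragments were ligated to the GATA6 viewpoint on chromosome 18 or the SOX17 viewpoint on chromosome 8, so for these genes every contact is between chromosomes. The 7 windows hold 43 of the sites in the table, 17 of them in TBX5. Library totals ran between 7491195 and 17076409 reads. The 4C libraries were amplified by PCR and no molecular identifiers are described, so the intervals given here are exact Clopper-Pearson intervals that cover counting error only.

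From the GATA6 viewpoint, 12 of 43 sites had a read in early G1 (27.9%, 95% interval 15.3 to 43.7%), 15 in late G1 (34.9%, interval 21.01 to 50.9%), 15 in S phase and 8 in G2/M (18.6%, interval 8.39 to 33.4%). All sites on other chromosomes had a read in 7.28%, 8.26%, 9.18% and 5.17% of cases in those phases, and sites in the other broad domains in 26.9%, 32.5%, 32.8% and 15.7%. From the SOX17 viewpoint, 13 sites had a read in early G1 (30.2%, interval 17.2 to 46.1%), 16 in late G1 (37.2%, interval 22.98 to 53.3%), 15 in S phase and 9 in G2/M (20.9%, interval 10.04 to 36.0%). The other broad domains had 24.5%, 23.1%, 28.4% and 11.7%, and all sites on other chromosomes 7.55%, 6.44%, 8.23% and 4.37%. The shares of the 7 genes were thus above those of all sites and within counting error of the other broad domains, and the 4 phases had overlapping intervals. The 43 sites include 16 outside H3K27me3 peaks in early G1 and late G1, all in TBX5, so genes and domains are not like measures. At sites under peaks the GATA6 shares were 44.4%, 55.6%, 50% and 25.9% in early G1, late G1, S phase and then G2/M. The SOX17 shares there were 40.7%, 48.1%, 45.5% and 29.6% in those phases. Without CDX2, which was left out after the values were seen, 38 sites remained. From GATA6 they had a read in 18.4% of cases in early G1 (interval 7.74 to 34.3%), 26.3% in late G1 and S, and 13.2% in G2/M (interval 4.41 to 28.1%), so that in G2/M the interval held the 5.17% of all sites. From SOX17 they had one in 26.3% of cases in early G1, 28.9% in late G1 and S, and 18.4% in G2/M.

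**Figure D3:**
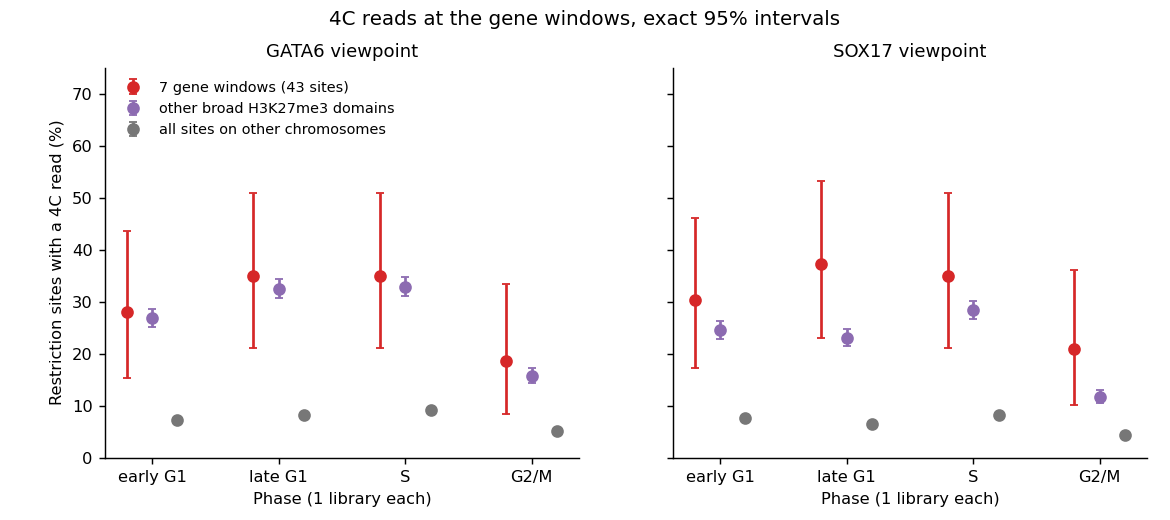
Share of 4C sites with at least 1 read in percent, by phase and viewpoint, for the 43 sites of the 7 gene windows, the other broad H3K27me3 domains and all sites on other chromosomes. Bars are exact 95% Clopper-Pearson intervals. The intervals of the gene windows overlap those of the other broad domains and lie above the shares of all sites.

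Reads were unevenly shared. CDX2 held 45.5% to 75.5% of the reads of the 7 windows in each library. Reads per site were 10.9 to 14.4 times those of all other-chromosome sites from GATA6, and 4.59 to 7.06 times without CDX2. From SOX17 they were 8.81 to 17.8 times, and 2.44 to 8.57 times without CDX2. Sites under an H3K27me3 peak of the same phase had reads at 12 of 27 in early G1, 15 of 27 in late G1, 11 of 22 in S phase and 7 of 27 in G2/M from GATA6. Outside those peaks reads were found at 0 of 16, 0 of 16, 4 of 21 and 1 of 16 sites in those phases. From SOX17 the counts were 11 of 27, 13 of 27, 10 of 22 and 8 of 27 under peaks, and 2 of 16, 3 of 16, 5 of 21 and 1 of 16 outside. All 16 sites outside peaks in early G1 and in late G1 lie in TBX5, as do 17 of 21 in S and 15 of 16 in G2/M, so peak cover and gene cannot be told apart here.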

How the data were processed

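The 16 ChIP peak lists and 1 table of 4C reads were analysed, and the 4 input libraries were not analysed here. Per the submitters' processing notes, the tools and builds named, with no role stated, were Bowtie 0.12.7, hg19 and mm9. The names of the deposited lists carry the word hpeak, and the sources used here do not give the caller's settings or how inputs entered. In each list the authors deposited, per peak, a length, a summit offset, a height treated as signal and a score that is negative in every row. Heights were 0 on chromosomes coded 22 to 24 and were treated as missing. The 4C table holds read counts per site, as deposited by the authors. Sequencing depth of the ChIP libraries is unknown, since the lists give peaks only.

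Coordinates were read on the 25 bp grid of the lists. Covered length is the union of a list's peaks within a window, and percentiles were taken within a list. A change of 1.5-fold was called. Gene strands were taken from general knowledge, and those of 6 of the 7 genes matched the RefSeq promoter table. Python 3.11.15, numpy 2.4.6, pandas 2.3.3, scipy 1.17.1 and matplotlib 3.10.9 were used, and the coverage code was tested on simulated data. With 1 library in each group no test was run. All 7 genes were named, each with its tallest H3K4me3, longest H3K27me3 and every H3K27ac and H3K4me1 peak. Members and lists were chosen with earlier results of these data known. Alternatives covered windows, list trimming, peak length, percentiles, domain joining and 4C counting. The planned lists of other cardiac and trophoblast genes were left out, since no hg19 annotation was used here.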

Additional observations from a re-analysis of the deposited data

How the results depend on the processing

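Across 71 results and 258 alternative values, 193 stayed within their margin and 65 moved, and the cause was not tested. Where the main value was 0, as for all H3K27ac results, settings that only remove peaks or shorten the window could not change it. The first of these counts therefore overstates how stable the results are. No paired analysis was possible because each group has 1 library. Limiting each list to its 50% of peaks with the most negative score, or to peaks of at least 500 bp, left 1 gene with H3K4me3 in early G1 (0.775 kb) and 0 in late G1 (0 kb), and both marks overlapping at 1, 0 and 0 genes in early G1, late G1 and G2/M. Both settings, and equal list lengths, left 0 genes and 0 kb of H3K4me1 in late G1, while 10 kb flanks gave 1 gene and 0.15 kb in S. Counting both marks anywhere in the window gave 1 gene in S. Gene bodies alone held 65.99, 65.252, 59.927 and 64.44 kb of H3K27me3 in early G1, late G1, S phase and then G2/M.

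Among all listed peaks the tallest H3K4me3 peak stood at the 60.7th, 36.9th, 55.1st and 56.5th percentiles in those phases, and by score at 60.9, 54.5 and 55.8 in early G1, S phase and G2/M. For H3K27me3 the score gave 99.7, 99.8 and 99.9 in late G1, S phase and G2/M, the longest peak 99.1 and 98.8 in late G1 and G2/M, and for H3K4me1 the score gave 49.8. At the nearest merged H3K4me3 region the median cover of 10 kb was 46.5%, 64%, 32% and 48.75% for H3K27me3, and 4.25% and 2.25% for H3K4me3 in early and late G1. That region lay 32.1 kb from the start at HAND1 and 130.9 kb at CDX2, with HAND2, NKX2-5 and TBX5 in between. For these genes the setting therefore does not measure cover at the start. Counting each 4C site once gave 3.83, 4.22, 3.80 and 3.596 times all sites from GATA6 and 4.01, 5.78, 4.24 and 4.78 times from SOX17. The other settings were chosen after seeing the data. Without CDX2 the ratios of reads per site were 5.51, 6.05, 7.06 and 4.59 from GATA6 and 2.44, 8.57, 7.33 and 7.29 from SOX17. A 20 kb minimum gave 21.8% of broad domains shorter by 1.5-fold in S, joining touching peaks gave 19%, and joining over 5 kb gave 1 gene domain past the limit.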

Other observations

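Single 4C sites were looked at after their values were seen, so these are descriptions. At CDX2, the site 5.875 kb inside the gene had 122, 492, 60 and 188 reads from GATA6 and 794, 549, 405 and 1161 reads from SOX17 in early G1, late G1, S phase and then G2/M. The site at −2.431 kb from the start had 1265, 1131, 543 and 1068 reads from GATA6 and 4, 172, 28 and 241 reads from SOX17. Both CDX2 sites had reads in all 8 libraries, as did 0.673% of the sites on chromosomes other than those of the viewpoints. At NKX2-5, the site at −1.125 kb from the start had 513, 306, 332 and 577 reads from GATA6 in those phases and 0 from SOX17 in each. HAND2 had reads at 1 site in 1 library, with 8 reads from GATA6 in late G1.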
